A study of Mus musculus with 4 samples.

Results

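The ribosome is assembled from ribosomal RNA and from the proteins described here, each of which is made from its own messenger RNA and fitted into either the large subunit, where peptide bonds form, or the small subunit, where the message is decoded. Lymphocytes at rest hold few ribosomes and make many more when they are activated. Most ribosomal protein mRNAs begin with a cytosine followed by a run of pyrimidines, the terminal oligopyrimidine (TOP) motif, through which the nutrient-sensing kinase mTOR adjusts their translation when food is short. The measurements below are mRNA levels and say nothing of how strongly the mRNAs were translated.

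Ribosomal protein genes were taken by their symbols (Rpl or Rps with a number, Rpsa, and Rplp0 to Rplp2), which gave 83 of the 15835 genes in the deposited count table, 50 of the large and 33 of the small subunit. RNA came from ILC2, group 2 innate lymphoid cells, which live in tissues and make type 2 cytokines, here from the islets of Langerhans of C57BL/6j mice. Libraries were made with CEL-seq2, a method that tags the 3′ end of each transcript with a sample barcode. The groups are 4 fed and 4 fasted libraries, named here by the numbers 1, 3, 4 and 5 of their columns. The labels give no length of fast, age or sex, no genetic change and no treatment other than feeding, and they do not say whether a library came from 1 mouse, a pool or a separate animal. P-values therefore measure the spread between libraries, which may be partly technical.

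The libraries held between 1797504 and 25252366 counts and between 9537 and 14056 detected genes. The ILC2 genes Gata3, Il1rl1, Il7r and Klrg1 were present in each of them, with Gata3 at 224 ± 81.8 CPM (counts scaled by library size) when fed and 222 ± 32.0 CPM when fasted (SD, n = 4). Much RNA of acinar cells, the enzyme-secreting cells around the islets, was present as well. A list of 20 acinar genes took 28.2%, 33.5%, 50.1% and 46.5% of counts in fed libraries 1, 3, 4 and 5, while the fasted values in that order were 2.21%, 2.49%, 47.3% and 50.2%. Fasted libraries 1 and 3 thus stand apart from the other 6. Of the other cell types, 11 of 12 myeloid markers had counts, and the list summed to between 38.4 and 84.0 CPM of the library total in fed and between 28.2 and 741 CPM in fasted libraries. The T cell list (7 of 9 with counts, Cd4 and Trat1 at 0) summed to between 22.0 and 55.6 CPM and between 45.4 and 170 CPM. The B cell list (7 of 8, Pax5 at 0) summed to between 0.854 and 4.198 CPM in fed and between 4.59 and 7.35 CPM in fasted libraries, without overlap. The 3 T cell genes and the 1 B cell gene with enough counts to be tested all had positive log2 fold changes, with a T cell median of 1.16 and a B cell value of 1.51; at an unadjusted p under 0.05, 2 of the 3 and the 1 were higher, and 0 passed adjustment by edgeR. The list of natural killer cells, ILC1 and ILC3 (3 of 9, Eomes, Prf1 and Il22 among those at 0) stayed at 3.14 CPM or less. Red cell genes (3 of 8) summed to between 107 and 379 CPM in fed and between 72.7 and 599 CPM in fasted libraries. The ductal, stromal and endothelial list (11 of 11) summed to between 115 and 216 CPM and between 21.6 and 190 CPM. Islet endocrine genes (10 of 13) summed to between 44.1 and 108 CPM and between 4.41 and 63.2 CPM. Mast cell, basophil and eosinophil genes (3 of 8) stayed at 16.1 CPM or less. The part of these other cells in the results below was not tested.

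The TOP motif was looked for in the RefSeq sequence around each start site (GRCm38.p6), since it is the feature through which these mRNAs are known to share control. A run was counted where a C within 20 bases of the annotated start, on either side, was followed by at least 5 further bases that were each C or T. A counted run can therefore lie wholly before the start, outside the annotated transcript. A gene with several annotated starts was counted where any of them had a run. Entries existed for 62 of the 83 genes, and 41 of them (66.1%) had such a run on the coding strand, against 34.8% of 27026 genes with an entry. On the opposite strand the shares were 21.0% and 38.7%, so the runs of the ribosomal protein genes lay mainly on the coding strand. The windows below cover 25 bases before and 25 bases from the start, 5′ to 3′ on the gene's strand, and capitals mark the run. The first pair are large subunit genes with long runs, followed by 2 small subunit genes with an unadjusted p under 0.05, Rpl37a with the highest fold change, Rps4x with separate groups, and the paralogues Rpl7l1 and Rps27l, which had negative fold changes. Where a gene has several annotated starts (Rps24, Rps27l), the first listed is shown. They lie at chr7:109519170-109519219 (plus strand, Rpl27a), chr2:39005107-39005156 (minus, Rpl35), chr17:33955641-33955690 (minus, Rps18), chr14:24490653-24490702 (plus, Rps24), chr1:72711235-72711284 (plus, Rpl37a), chrX:102189367-102189416 (minus, Rps4x), chr17:46782632-46782681 (minus, Rpl7l1) and chr9:66946061-66946110 (plus, Rps27l).
Rpl27a: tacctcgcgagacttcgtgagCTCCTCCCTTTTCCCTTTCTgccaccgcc
Rpl35: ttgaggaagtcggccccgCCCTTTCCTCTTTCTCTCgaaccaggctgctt
Rps18: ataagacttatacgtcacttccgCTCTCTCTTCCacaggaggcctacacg
Rps24: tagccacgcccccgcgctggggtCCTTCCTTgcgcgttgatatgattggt
Rpl37a: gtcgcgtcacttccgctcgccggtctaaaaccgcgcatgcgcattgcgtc
Rps4x: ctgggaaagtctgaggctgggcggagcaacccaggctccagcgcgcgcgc
Rpl7l1: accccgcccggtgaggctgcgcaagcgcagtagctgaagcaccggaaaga
Rps27l: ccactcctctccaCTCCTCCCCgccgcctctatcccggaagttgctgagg
The run was 20 bases long in Rpl27a, 18 in Rpl35, 11 in Rps18, 9 in Rps27l and 8 in Rps24, and no run by this rule lay in the windows of Rpl37a, Rps4x and Rpl7l1. That of Rps27l had its first base at −12 from the annotated start and ended before it. A match describes these letters at an annotated start, which can differ from the start used in ILC2.

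The first question was whether ribosomal protein mRNA made up a different share of the RNA after fasting. The 83 genes took 13.0%, 10.8%, 5.24% and 8.53% of all counts in fed libraries 1, 3, 4 and 5, while their share after fasting was 27.7%, 29.1%, 6.99% and 8.48% in the same order. The fed mean was 9.40% ± 3.32 and the fasted mean 18.1% ± 11.96 (SD, n = 4), and the groups overlapped. The 2 high values are those of the 2 libraries with little acinar RNA. Without these 2 libraries the difference of means turned from 8.66 to −1.67 percentage points, and without fasted library 1 or fasted library 3 alone it was 5.44 or 4.99 points.

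A second denominator left out the acinar list together with 10 further exocrine secreted products, an addition made after the data had been seen. This wider list took from 3.11% (fasted 1) to 75.4% (fed 4) of a library. Of the remaining counts, ribosomal protein genes took 23.0%, 21.6%, 21.3% and 26.3% in the fed and 28.6%, 30.1%, 23.8% and 30.8% in the fasted libraries, in the order above. Fasted library 4 was the lowest of its group and lay under fed library 5, while the other fasted libraries lay above all fed ones. The means were 23.1% ± 2.31 and 28.3% ± 3.18 (SD, n = 4), 5.28 points apart, and 4.25 points apart without fasted libraries 1 and 3. Libraries of the same number were taken as pairs because their deviations from the group means correlated, at 0.14 to 0.53. The labels do not state this pairing, and some libraries of different numbers correlated as well, at up to 0.24. Within these pairs the share without the wider list was higher in the fasted library by 5.57, 8.53, 2.49 and 4.52 points, so in 4 of 4 pairs. Acinar cells hold ribosomal protein mRNA of their own, which none of these denominators removes. In bulk RNA, fewer cells of a type cannot be told apart from less RNA per cell.

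**Figure D1:**
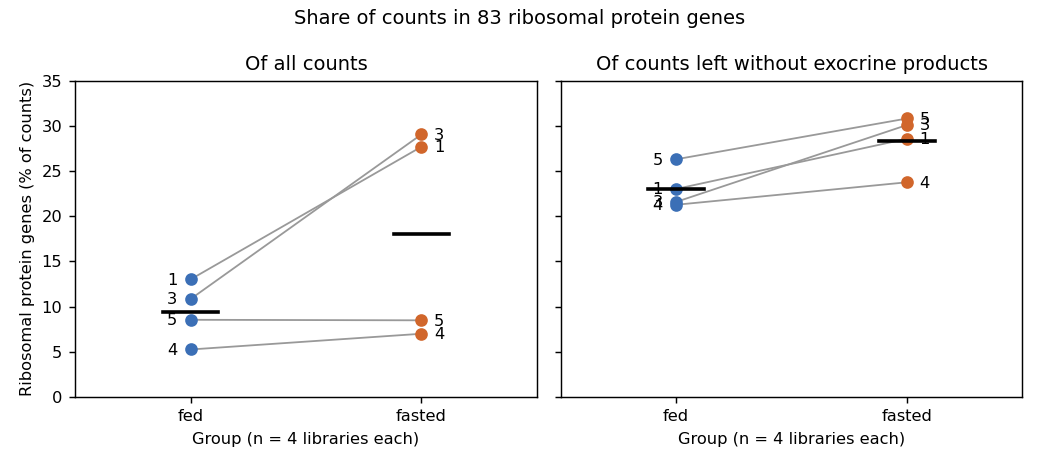
Ribosomal protein counts as a percentage of all counts (left) and of the counts left without the wider exocrine list (right) in each library. Points are single libraries labelled with their number, grey lines join libraries of the same number and black bars are means of 4; on the left, fasted libraries 1 and 3 lie at 27.7% and 29.1%, and on the right each line goes up.

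Single genes were compared with edgeR's quasi-likelihood test over the 7700 genes with enough counts, with levels in CPM over library sizes scaled by TMM (trimmed mean of M-values) factors and p-values adjusted by Benjamini-Hochberg. Of the 83 genes 75 were tested, 43 of the large and 32 of the small subunit; the other 8, Rpl10l, Rpl22l1, Rpl26, Rpl30, Rpl34, Rpl39l, Rplp2 and Rps27, had too few counts. No ribosomal protein gene passed an adjusted p of 0.05, nor did any other gene (0% of 7700 called). At an unadjusted p under 0.05, 7 of the 75 were higher and 0 lower in fasted libraries, where 2.77% and 1.62% of all tested genes were. The same 75 genes gave 0 adjusted calls with DESeq2 and with limma-voom. With DESeq2, 5 of the 75 had an unadjusted p under 0.05, beside 352 of all 7700 genes. With limma-voom, run with quality weights that let libraries count unequally, 40 of the 75 did, beside 729 of all 7700.

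The fold changes were small and mostly positive. The log2 fold change, fasted minus fed, was positive for 71 of the 75 genes with a median of 0.34, while it was positive for 49.8% of all tested genes with a median of −0.0016. The middle of the distribution was narrow, from 0.26 to 0.42 between the quartiles, against −0.31 to 0.29 for all genes. The median standard error (SE) of a ribosomal protein gene was 0.23 and the median unadjusted p was 0.14. In 9 of the 75 genes every fasted library lay above every fed library, which 2.21% of all tested genes did, and in 0 genes below, which 1.31% did. Counted over libraries of the same number, 45 of the 75 were higher in the fasted library of each of the 4 pairs and 2 were lower, against 9.39% and 8.19% of all genes. These genes share libraries and scaling, so they are not 75 independent observations.

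The acinar share was low in fasted libraries 1 and 3. Without those 2 libraries the median of the 75 genes was 0.30, with 69 positive, and with the acinar share as a covariate it was 0.31, with 69 positive. In each of the same 2 fits, 1 of the 75 ribosomal protein genes had an unadjusted p under 0.05 by edgeR, against 7 in the main fit. Among all tested genes 267 of 8995 and 316 of 7700 did in these fits, against 338 of 7700 in the main fit. The excess of ribosomal protein genes at this threshold was thus absent in both. The level also depends on the scaling: over library totals alone the median was 0.92, while the median of all genes moved to 0.50, so the ribosomal protein genes lay 0.42 above all genes there and 0.35 above them with TMM factors.

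**Figure D2:**
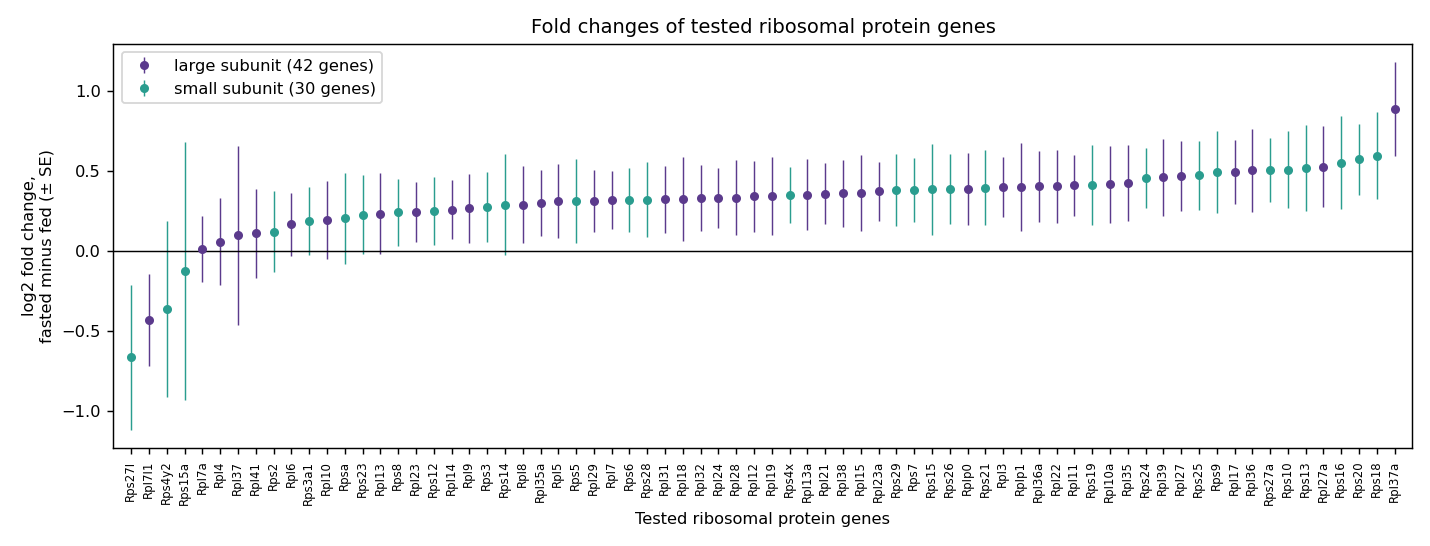
Log2 fold change (fasted minus fed, y axis) of 72 tested ribosomal protein genes in increasing order, with bars of 1 SE, 42 genes of the large and 30 of the small subunit. All but 4 points lie above 0, with the quartiles of all 75 tested genes at 0.26 and 0.42, and Rpl37a is the highest at 0.89.

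The gene with the smallest p was Rpl37a (chr1:72711290-72713813), a small zinc-binding protein of the large subunit whose start is printed above. Its level was 1689, 1359, 1225 and 2254 CPM in fed libraries 1, 3, 4 and 5, and the fasted values in that order were 2421, 3146, 2097 and 4420 CPM. Only fasted library 4 fell below the highest fed library, number 5. The log2 fold change was 0.89 ± 0.29 (SE), with an unadjusted p of 0.0112 and an adjusted p of 0.87 by edgeR, and leaving out single libraries gave 0.64 to 1.09.

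Rps20 (chr4:3831334-3835665), in the head of the small subunit, was at 2529, 2599, 2550 and 3388 CPM in fed and 4291, 4555, 3081 and 4560 CPM in fasted libraries. Fasted library 4 lay below fed library 5 and the other 3 fasted libraries above all fed ones. Its log2 fold change was 0.58 ± 0.22 (SE). Rps24, which takes part in processing of the small subunit's RNA, was at 1033, 949, 985 and 1060 CPM in fed and 1444, 1572, 1161 and 1345 CPM in fasted libraries. Its groups did not overlap, at a log2 fold change of 0.46 ± 0.19 (SE). Rpl17, a protein of the nascent chain's exit tunnel, was at 1327, 1450, 1826 and 1485 CPM against 2363, 2307, 1988 and 1934 CPM. Here too every fasted library was above every fed one, at 0.50 ± 0.20 (SE). Rps27a, made as a fusion with ubiquitin, was at 388, 338, 358 and 413 CPM against 577, 624, 392 and 534 CPM, with fasted 4 inside the fed range and a log2 fold change of 0.51 ± 0.20 (SE). Each of these 4 had an adjusted p of 1.00 by edgeR. Rps18, also in the head of the small subunit, was at 1064, 666, 811 and 503 CPM against 1228, 1294, 785 and 1301 CPM. Its fasted library 4 lay inside the fed range and the other 3 above it, with a log2 fold change of 0.60 ± 0.27 (SE) and an unadjusted p under 0.05.

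Rps4x, an X-linked protein of the small subunit, had the tightest fed group of those with separate groups, at 909, 850, 903 and 904 CPM, and fasted libraries at 1022, 1195, 1105 and 1231 CPM. The gap between the groups, from 909 to 1022 CPM, was wider than the fed range, and the log2 fold change was 0.35 ± 0.18 (SE). The other genes whose groups did not overlap were Rpl11, Rpl21, Rpl23a, Rpl3, Rps25 and Rps7, with log2 fold changes from 0.36 (Rpl21) to 0.47 (Rps25).

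Large and small subunit genes gave similar values. The median log2 fold change was 0.34 over 43 large subunit genes, 42 of them positive, and 0.38 over 32 small subunit genes, 29 of them positive. Separate groups were found for 5 large and 4 small subunit genes, all higher in fasted libraries, where 2.21% of all tested genes were. Higher in the fasted library of each same-number pair were 27 of 43 large and 18 of 32 small subunit genes, against 9.39% of all. Summed over genes, large subunit counts were 1.37, 1.53, 1.62 and 1.60 times the small subunit counts in fed libraries 1, 3, 4 and 5, and the fasted ratios in that order were 1.31, 1.40, 1.58 and 1.61. The mean ratio was 1.53 ± 0.114 for fed and 1.47 ± 0.144 for fasted libraries (SD, n = 4), and the ranges overlapped nearly throughout. The difference of log2 ratios was −0.056, and 0.062 without fasted libraries 1 and 3. Libraries numbered 1 had the lowest ratio in both groups and those numbered 3 the next.

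By role, the proteins of the stalk that recruits elongation factors had similar values. Rplp0, the base of the stalk, was at 1715, 1307, 1485 and 2232 CPM in fed and 2114, 2370, 1866 and 2482 CPM in fasted libraries. Rplp1, its acidic tip, was at 4019, 2531, 3092 and 4535 CPM against 3754, 5775, 3422 and 5810 CPM. In both genes the fasted libraries reached higher but the groups overlapped, with log2 fold changes of 0.39 ± 0.23 and 0.40 ± 0.28 (SE), and Rpl12, which sits beside the stalk, was at 0.34 ± 0.22.

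Rpl5 and Rpl11 bind the 5S ribosomal RNA, and outside the ribosome they bind the p53 inhibitor Mdm2. Rpl11 was at 605, 569, 686 and 702 CPM in fed and 836, 853, 705 and 1016 CPM in fasted libraries. The groups were separate, though fasted 4 lay just above fed 5, and the log2 fold change was 0.41 ± 0.19 (SE). Rpl5 was at 1703, 2277, 2530 and 1594 CPM against 2150, 3021, 2591 and 2313 CPM, overlapping, with 0.31 ± 0.23 (SE).

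Among the proteins that line the exit tunnel, Rpl4 differed from Rpl17 in its values. It was at 2058, 3157, 3979 and 1848 CPM in fed and 2408, 3036, 3140 and 2937 CPM in fasted libraries, so the fasted values lay inside the fed range. Its log2 fold change was 0.06 ± 0.27 (SE), and −0.05 and −0.09 without fed library 1 or fed library 5. Rpl39, the third of them, was at 884, 646, 701 and 1078 CPM against 1262, 1246, 792 and 1257 CPM, with 0.46 ± 0.24 (SE). Around the tunnel's rim, where the nascent chain meets its targeting factors, 5 of 5 tested genes were positive with a median of 0.37. The medians were 0.25 over 4 genes at the mRNA entry and decoding site, 0.32 over 3 genes at the mRNA exit and 0.41 over the 9 genes known from Diamond-Blackfan anaemia, an inherited failure of red cell production, and each of these values was positive. None of these lists held a gene with an adjusted p under 0.05 by edgeR.

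Levels differed widely between genes. CEL-seq2 counts 3′ ends, so the counts were not divided by transcript length. Rpl10, Rps15, Rps16 and Rplp1 were among the 5 most abundant, with mean levels from 3544 CPM (Rplp1, fed) to 6435 CPM (Rpl10, fasted) and log2 fold changes from 0.20 (Rpl10) to 0.56 (Rps16).

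Within the ribosomal protein pool most genes kept their place. Counts per 1000 ribosomal protein counts show how a gene moved relative to the others, and 68 of the 75 genes had a mean fasted minus fed difference within 0.25 on the log2 scale, with a median absolute difference of 0.088. The exceptions were 2 genes above 0.25 and 5 that fell short of the pool by more than that. Rps20 was the only one whose fasted shares were all higher, at 24.4, 30.4, 26.2 and 27.8 per 1000 in fed and 32.6, 31.7, 30.7 and 30.4 per 1000 in fasted libraries. The highest fed share, in library 3, lay just below the lowest fasted one. Rps2, which lines the mRNA entry, was the only one whose fasted shares were all lower, at 7.94, 7.77, 8.39 and 9.14 per 1000 against 7.48, 7.21, 5.75 and 7.48 per 1000. The fasted values sat just under the fed ones except in library 4.

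Rpl37a had the highest pool difference, 0.51 on the log2 scale. Its shares were 16.3, 15.9, 12.6 and 18.5 per 1000 in fed and 18.4, 21.9, 20.9 and 29.5 per 1000 in fasted libraries, so the groups overlapped only where fasted 1 met fed 5. Rps18 followed at 0.26, with overlapping groups. At the other end stood Rps27l at −1.06, Rpl7l1 at −0.83 and the Rps4x-like gene listed as Rps4y2 at −0.65, and Rpl7a at −0.34. The first 3 are paralogues of other members, of which Rpl7l1 and Rps4y2 are the scarcer of their pairs and Rps27l the more abundant.

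**Figure D3:**
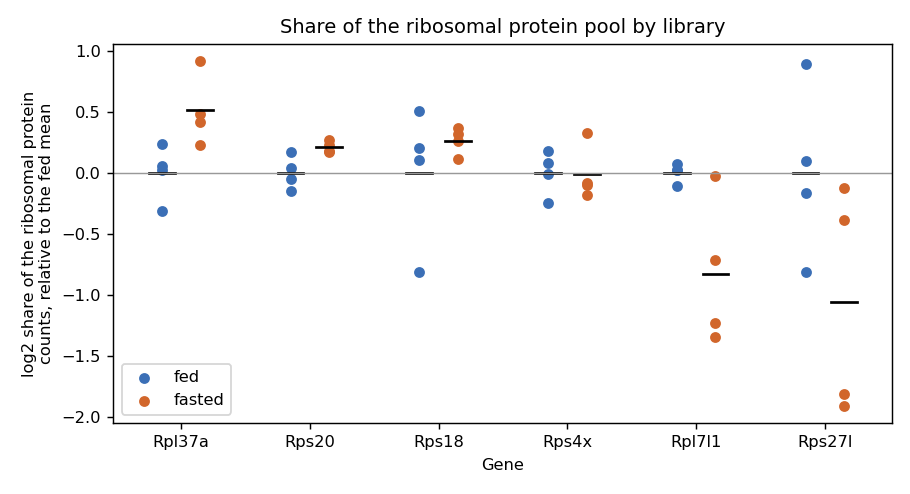
Log2 share of the ribosomal protein counts in each library relative to the fed mean (y axis) for 6 genes, with 4 fed and 4 fasted libraries as points and bars at the group means. The fasted means lie at 0.51 for Rpl37a and 0.21 for Rps20, and at −0.83 for Rpl7l1 and −1.06 for Rps27l, whose points are widely spread.

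Paralogue pairs were compared by the log2 ratio of their counts within a library, which does not depend on the library's size. Both genes had enough counts in 3 of the pairs, and the exact two-sided permutation test over 70 assignments can reach a p of 0.0286 at the smallest. Rpl7l1, a nucleolar relative of the large subunit protein Rpl7, made up 4.16%, 3.57%, 3.65% and 5.54% of the counts of the pair in fed libraries 1, 3, 4 and 5, and the fasted shares in that order were 2.19%, 1.77%, 3.09% and 3.02%. Every fasted share was below every fed share, with fasted 1 and 3 the lowest. The log2 ratio was 0.79 lower in fasted libraries, with p = 0.0286 by the exact permutation test, the smallest it can give, and 0.0857 adjusted over the 3 pairs. An adjusted exact permutation p below 0.0857 would have needed low p-values in the other pairs too. Permuting only within same-number pairs gave an exact p of 0.125, the smallest that 4 such pairs can give. That test could therefore not give a lower p, whatever the counts. Without fasted libraries 1 and 3 the difference was −0.47 with an adjusted exact permutation p of 0.3.

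Both genes of the pair contributed to this ratio. Rpl7 was at 532, 583, 628 and 506 CPM in fed and 604, 754, 743 and 704 CPM in fasted libraries, where fasted 1 lay below fed 4 and the others above all fed ones, and its log2 fold change was 0.32 ± 0.18 (SE). Rpl7l1 was at 23.1, 21.6, 23.8 and 29.7 CPM against 13.5, 13.6, 23.7 and 21.9 CPM. Its low values were those of fasted libraries 1 and 3, and the log2 fold change was −0.43 ± 0.29 (SE). Whether acinar RNA has a part in the lower share of Rpl7l1 was not tested: within fasted libraries, the share was 2.19% and 1.77% in the 2 with little acinar RNA and 3.09% and 3.02% in the other 2.

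None of the pairs tested passed after adjustment, Rpl7 with Rpl7l1 included, and in the other pairs tested the groups overlapped. The Rps4x-like gene on chromosome 6, now named Rps4l, made up 0.920%, 0.551%, 0.438% and 0.226% of its pair with Rps4x in fed and 0.454%, 0.421%, 0.199% and 0.229% in fasted libraries. These overlapped, and the log2 ratio differed by −0.64 (p = 0.2 by the exact permutation test, 0.3 adjusted). Rpl36al, which lies outside the symbol rule, made up 12.2%, 19.95%, 21.0% and 13.1% of its pair with the X-linked Rpl36a against 14.2%, 13.6%, 15.9% and 13.5%. The fasted values lay inside the fed range, and the log2 ratio differed by −0.22 (p = 0.43 by the exact permutation test, 0.43 adjusted).

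For the remaining pairs 1 partner had too few counts for a ratio. Rpl22l1 had 5 counts over the 8 libraries against 11956 of Rpl22, Rpl10l 2 against 289076 of Rpl10, and Rplp2 32 against 178453 of Rplp1. Rpl39l had 15 counts, 14 of them in fasted libraries, against 42281 of Rpl39. The pair Rps27 and Rps27l was the reverse of the others, with 70 counts of Rps27, the standard member, and 2863 of Rps27l, which is known as a target of p53. Rps27l was at 33.7, 43.5, 103 and 74.7 CPM in fed and 21.4, 22.0, 52.8 and 65.5 CPM in fasted libraries. The libraries numbered 4 and 5 were the highest in both groups, those with the most acinar RNA, and the part of acinar RNA in the level was not tested. The log2 fold change of Rps27l was −0.66 ± 0.45 (SE), and −0.33 without fed library 4.

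Low counts of Rps27 and Rplp2, proteins that every ribosome is thought to need, are a limit of the table, and 11 of the 83 genes had under 250 counts in all, a limit set after the values were seen. The next lowest had 564. To see whether such genes share their 3′ ends with other genes, the last 300 bases of their transcripts in GENCODE vM21 were cut into stretches of 50 bases. A median of 58.8% of these stretches occurred in another gene for the 10 of the 11 with an annotated end, and 54.4% for the other 72 genes. At least 50% were shared in 6 of the 10 and in 38 of the 72. Rps27 shared 100% and Rps15a 77.3% of them, but Rplp2 shared 6.4% and Rpl37 0%, and Rpl10, with 289076 counts, also shared 100%. The sources used here do not give the treatment of multiply mapping reads, and values of genes with shared ends are uncertain for that reason. The fold changes of the scarce Rps15a (−0.12 ± 0.81 SE) and Rpl37 (0.10 ± 0.56 SE) have the widest errors, and that of Rps4y2 was −0.36 ± 0.55 (SE).

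**Figure D4:**
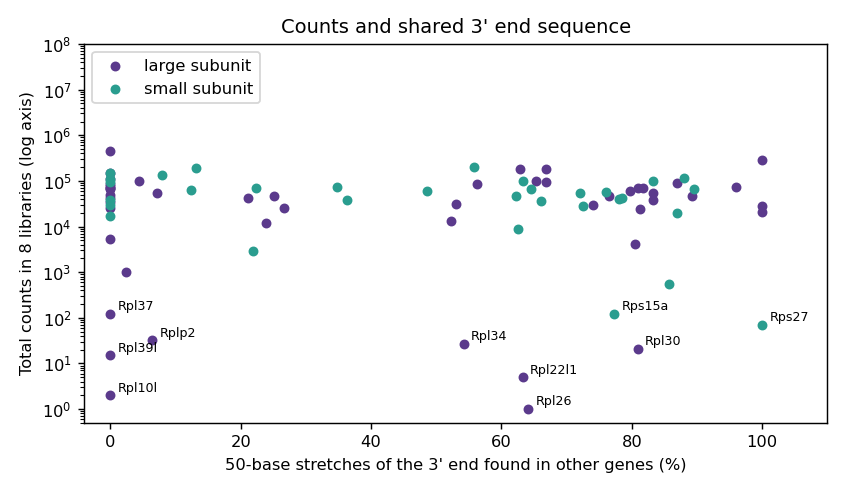
Total counts over 8 libraries (log axis) of each ribosomal protein gene against the percentage of 50-base stretches of its 3′ end that occur in another gene. The labelled genes with under 250 counts spread from 0% (Rpl37) to 100% (Rps27), as do the abundant genes.

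Ribosomal proteins whose symbols fall outside the rule had values like those inside it. Fau, a ubiquitin-like protein fused to a small subunit protein, was at 2468, 1669, 1455 and 3075 CPM in fed and 3176, 3222, 2009 and 3954 CPM in fasted libraries. The groups overlapped through fasted 4 and fed 5, and the log2 fold change was 0.51 ± 0.30 (SE). Gnb2l1 (now Rack1), a signalling scaffold on the small subunit, was at 0.29 ± 0.25, and Rpl36al, the paralogue above, at 0.19 ± 0.22 (SE).

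Other mRNAs known to carry a TOP motif are mostly translation factors. A run by the rule above was found in 9 of 13 of them with an entry (69.2%), and in 53.8% on the opposite strand. Of 18 tested, 17 were positive, and the median log2 fold change was 0.39. In each same-number pair 10 were higher in the fasted library, against 9.39% of all tested genes. By edgeR 0 passed an adjusted p of 0.05. At an unadjusted p under 0.05 by edgeR 3 were higher and 0 lower, where 2.77% and 1.62% of all tested genes were. Btf3, a subunit of the complex that meets nascent chains, was at 108, 110, 128 and 110 CPM in fed and 197, 167, 150 and 186 CPM in fasted libraries. Its groups did not overlap, and the log2 fold change of 0.62 ± 0.19 (SE) had an adjusted p of 0.79 by edgeR. Gas5, a host gene of small nucleolar RNAs, was at 53.7, 45.3, 50.2 and 47.1 CPM against 79.9, 87.6, 67.3 and 63.2 CPM, with separate groups and 0.60 ± 0.21 (SE). Eef1g, a subunit of the elongation factor that exchanges nucleotide, was the only negative one at −0.20 ± 0.23 (SE). As a share of counts without the wider exocrine list, the list took 1.64% ± 0.206 when fed and 1.93% ± 0.125 when fasted (SD, n = 4), higher in 4 of 4 same-number pairs.

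Mitochondrial ribosomal proteins build the separate ribosome of the organelle, and their fold changes went both ways. A run was found in 30 of 67 with an entry (44.8%). Of 73 tested genes 29 were positive and 44 negative, with a median of −0.07, and 2 were higher and 5 lower in each same-number pair, both below the shares of all genes (9.39% and 8.19%). With edgeR 0 had an unadjusted p under 0.05 in either direction. Mrps12 was at 13.3, 11.99, 15.7 and 14.3 CPM in fed and 8.62, 10.9, 7.52 and 10.6 CPM in fasted libraries. Its fasted libraries all lay below the fed ones, at −0.56 ± 0.30 (SE), and Mrpl51 was at −0.48 ± 0.26, while Mrpl24 and Mrps33 were at 0.59 ± 0.39 and 0.41 ± 0.26. The list took 0.323% ± 0.0157 of counts without the wider exocrine list when fed and 0.293% ± 0.0188 when fasted (SD, n = 4), lower in 4 of 4 same-number pairs. Those counts include the ribosomal protein counts, whose share was higher in fasted libraries of each pair. A higher share of some genes by itself lowers the share of the others. Its part in the lower mitochondrial share was not tested.

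**Figure D5:**
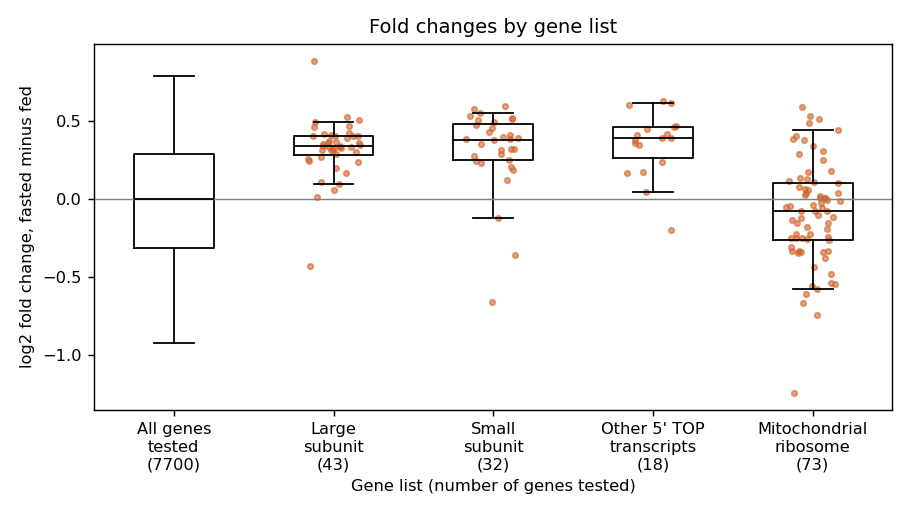
Log2 fold changes (fasted minus fed, y axis) of all 7700 tested genes and of 4 gene lists, with boxes from quartile to quartile, lines at the medians, whiskers to the 5th and 95th percentile and points for the genes of the 4 lists. The medians are 0.34 and 0.38 for the large and small subunit and 0.39 for other TOP mRNAs, against −0.07 for the mitochondrial ribosome.

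Genes that regulate the synthesis of ribosomal proteins showed no common direction, with 6 of 14 positive and a median of −0.15. Gltscr2 (now Nop53), a nucleolar factor of large subunit assembly, was at 233, 231, 172 and 331 CPM in fed and 467, 495, 255 and 426 CPM in fasted libraries. Only fasted 4 fell inside the fed range, and the log2 fold change was 0.77 ± 0.27 (SE) with an adjusted p of 1.00 by edgeR. Maf1, a repressor of RNA polymerase III, was at 0.56 ± 0.30. Eif4ebp1, the repressor of cap-dependent initiation that mTOR inactivates, was at −0.49 ± 0.46, and Rps6kb2, an S6 kinase, at −0.67 ± 0.72 (SE). The lymphocyte identity genes of ILC2 served as a further reference, with 6 of 12 positive and a median of −0.004, while 0 of 20 acinar genes were positive, with a median of −0.44.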

How the data were processed

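The deposited values are raw counts per gene, not normalised; per the submitters' processing notes the authors used STAR, edgeR and the mouse build mm10, and versions, the strand setting, the treatment of multiply mapping reads, and whether reads or unique molecules were counted are not given in the sources used here. Per the labels, 4 multiplexed files hold fed and fasted libraries together, so groups come from the column names, with control taken as fed; 2 further columns were not used. The 11 spike-in rows (20 counts) were left out.

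Genes were filtered (filterByExpr by group), scaled with TMM and tested in edgeR 4.0.16 (R 4.3.3), robust quasi-likelihood, group only, two-sided, Benjamini-Hochberg over 7700 genes; the biological coefficient of variation was 0.506. Alternatives were other scalings, filters, limma 3.58.1 (voom with quality weights per library) and DESeq2 1.42.0, a replicate block, an acinar covariate and left-out libraries. The SE of an edgeR log2 fold change was back-calculated, as its absolute value divided by the square root of the quasi-likelihood F statistic. Paralogue ratios used a pseudocount of 0.5. Deviations from group means correlated at 0.25, 0.16, 0.53 and 0.14 between libraries of the same number, which were therefore taken as pairs; fed 4 with fasted 5 and fed 1 with fasted 3 also correlated, at 0.24 and 0.22. Libraries of a group differed by more than sampling of counts (the lowest chi-square per gene was 14.2). Gene coordinates come from GENCODE vM21 on the same build.

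The fit was tested on simulated data. The members, gene lists and tests were chosen with earlier results of these data known. Named genes are the 5 of lowest p for each direction, the 5 most and 5 least abundant tested, paralogues, members of 3 role lists, ribosomal proteins outside the symbol rule, the 3 with the highest and 3 with the lowest pool difference, and, for each further list, the 2 of lowest p for each direction; others named in the text were chosen after their values were seen. A few of the genes so chosen are left unreported.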

Additional observations from a re-analysis of the deposited data

Results flagged for a closer look

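In 4 of 64 groups of 4 libraries examined, 1 library stood apart from the other 3 by Dixon's criterion, which chance alone gives in about 1 of 20 groups. Rps20 in fed library 5 was at 3388 CPM, above the other fed libraries at 2529 to 2599 CPM. Rps4x in fed library 3 was at 850 CPM, below the other fed libraries at 903 to 909 CPM. In fasted library 4, Rpl39 was at 792 CPM against 1246 to 1262 CPM in the other fasted libraries, and Rps18 was at 785 CPM against 1228 to 1301 CPM.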

How the results depend on the processing

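No ribosomal protein gene passed an adjusted p of 0.05 under any alternative run. Over all genes the number called was 1 with library totals alone, 1 with no filter on low counts and 8 with DESeq2 (6 higher, 2 lower), against 0 with edgeR, where 338 had an unadjusted p under 0.05, and it was 0 whichever single library was left out. The replicate block changed no call (0 genes, with 536 at an unadjusted p under 0.05); with it the ribosomal protein median was 0.35, with 16 members at an unadjusted p under 0.05 against 7. The median log2 fold change was 0.92 with library totals alone, and −0.013 with the summed ribosomal protein counts as library size, by construction. It ran from 0.27 to 0.45 with single libraries left out. The share of all counts ran from 4.99 to 12.4 points, the share without the wider exocrine list from 4.44 to 6.80 points and the log2 ratio of large to small subunit counts from −0.11 to −0.00024. Without fasted libraries 1 and 3 the first was −1.67 points and the third 0.062. The log2 ratio ran from −0.90 to −0.63 for Rpl7l1, from −0.97 to −0.32 for Rps4l and from −0.37 to −0.062 for Rpl36al.

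Of 840 values of 40 named genes over the alternatives, 815 kept their direction and 25 reversed. With the ribosomal protein pool as library size, Rpl10 was at −0.17, Rpl37 at −0.15, Rpl7 at −0.041, Rps4x at −0.0049, Rpl36al at −0.16, Rpl12 at −0.021, Rpl5 at −0.064, Rpl4 at −0.32 and Gnb2l1 at −0.083. With library totals, which raise the median of all genes to 0.50, Rps4y2 was at 0.20, Rps15a at 0.011, Eef1g at 0.38, Mrps12 at 0.017 and Mrpl51 at 0.056. Rps15a was at 0.35 with limma-voom, 0.32 with the replicate block, 0.026 without fasted 1 and 3, 1.00 without fed 1 and 0.12 without fasted 5. Rps4y2 was at 0.021 without fed 1. Rpl37 was at −0.10, −0.11 and −0.12 without fed 3, fed 4 and fasted 4, and Rpl4 at −0.053 and −0.087 without fed 1 and fed 5. At the other end of their ranges with single libraries left out, Rps4y2 was at −0.60, Rps15a at −0.58, Rpl4 at 0.29 and Rpl37 at 0.50. The cause of these reversals was not tested. The few counts of the 11 genes under 250 limit the precision of their values.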
